A study of Rattus norvegicus with 6 samples.

Results

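Sox17 (ENSRNOG00000027357) and Sox18 (ENSRNOG00000016248), 2 of the 21554 rat genes with deposited values, were followed in each of 6 hearts. The pair was selected on its log2 fold change between the groups in these same data, where both genes were already known to be higher in the model group, so their difference between the groups is described here without a test. The hearts came from male Sprague-Dawley rats aged 6 to 8 weeks at purchase. The 3 rats of the model group received streptozotocin (STZ), a toxin of insulin-producing beta cells, once into the peritoneum at 65 mg/kg in citrate buffer, and were kept only if their blood glucose passed the study's diabetic threshold. The 3 rats of the control group received citrate buffer. Hearts were taken 5 months later, when the study describes the model group as having diabetic cardiomyopathy (DCM), and RNA was extracted from heart tissue without separation into cell types. Diabetes in this model follows chemical loss of beta cells, so STZ itself and the diabetes that follows it cannot be told apart in these groups. The rats are named by the numbers in their labels, which are 1, 2 and 3 for the control group and 3, 4 and 8 for the model group, and a shared number does not pair the rats.

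Sox17 and Sox18 encode transcription factors of the SoxF subgroup, which Sox7 completes. Each binds DNA through an HMG box and is made mainly by endothelial cells, the cells that line vessels. Sox17 is best known in arterial endothelium, where it acts together with Notch signalling, and also in the early endoderm. Sox18 is best known for starting lymphatic vessel formation by switching on Prox1, and it also acts in growing blood vessels. The SoxF factors can stand in for one another in part, which makes their ratio in a heart of interest as well as each level.

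Library totals lay between 16617803 and 17948961 counts, at most 1.08-fold apart. Levels are given as CPM, counts scaled by TMM to a common library size on the premise that the bulk of genes is stable. Sox17 and Sox18 are compared with each other and ranked among other genes as FPKM, which also divides by gene length, and the ratio of their counts is compared between hearts only. The gene length implied by the deposited FPKM was 2326 bases for Sox17 and 1617 bases for Sox18, and it was the same in every heart. In the RefSeq table of assembly GRCr8, 0 other genes overlapped either locus, while the submitters' notes name build mRatBN7.2.

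Sox17 was higher in each model heart than in each control heart, and it was lowest among the model hearts in rat 8. Control rats 1, 2 and 3 held 690, 713 and 573 Sox17 reads. In model rats 3, 4 and 8 there were 2495, 3477 and 1282 reads. The groups did not overlap, and rats 3 and 4 stood well apart from rat 8, whose exact Poisson interval of 1213 to 1354 counts (95%, counting error only) ended far below that of rat 3, 2398 to 2595.

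In CPM, Sox17 measured 44.5, 41.45 and 36.1 in control rats 1, 2 and 3, or 40.7 ± 4.29 (SD, n = 3). Model rats 3, 4 and 8 measured 139.6, 157.8 and 77.4, or 124.9 ± 42.2 (SD, n = 3). Rats 3 and 4 were 3.43-fold and 3.88-fold above the control mean and rat 8 was 1.90-fold above it. The lowest model heart was 1.74-fold above the highest control heart. The log2 fold change of Sox17 in the edgeR fit over all tested genes was 1.62 (standard error 0.27), a fold of 3.07.

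Sox18 was also higher in each model heart than in each control heart, but here the lowest model heart was rat 3. Control rats 1, 2 and 3 held 1075, 943 and 991 Sox18 reads. In model rats 3, 4 and 8 there were 1872, 3774 and 2918 reads. The Poisson interval of rat 3, 1788 to 1959 counts, lay below that of rat 8, 2813 to 3026, which is the opposite arrangement to Sox17.

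In CPM, Sox18 measured 69.4, 54.8 and 62.4 in control rats 1, 2 and 3, or 62.2 ± 7.28 (SD, n = 3). Model rats 3, 4 and 8 measured 104.7, 171.3 and 176.1, or 150.7 ± 39.9 (SD, n = 3). Rat 3 was 1.68-fold above the control mean, against 2.75-fold in rat 4 and 2.83-fold in rat 8. The order of rats 4 and 8 rests on the scaling, since in CPM from library totals alone rat 4 had 212.8 and rat 8 had 173.2. The lowest model heart was 1.51-fold above the highest control heart. The log2 fold change of Sox18 was 1.28 (standard error 0.24), a fold of 2.42.

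**Figure D1:**
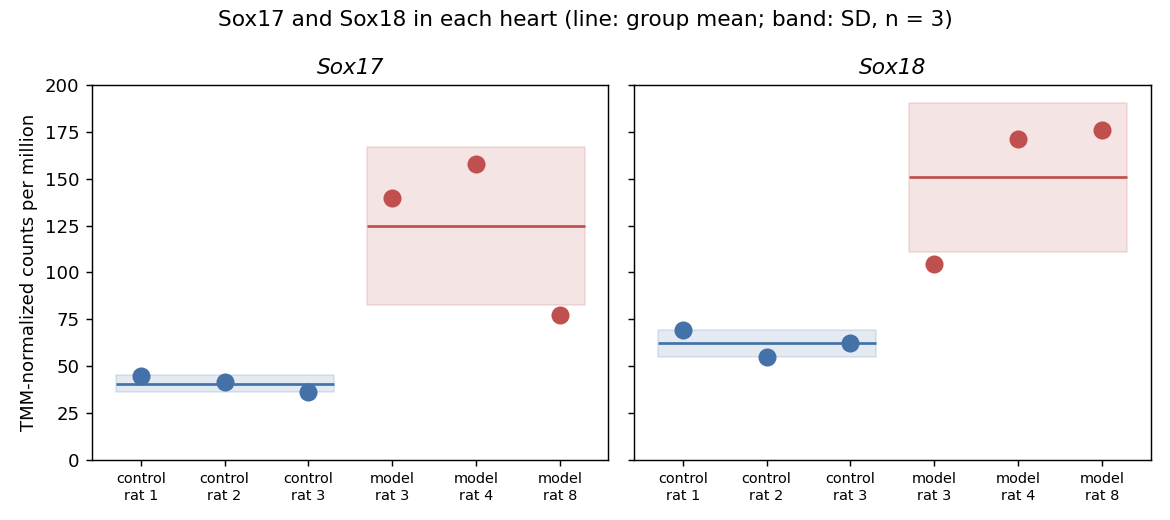
Sox17 and Sox18 in TMM-normalized CPM in each heart, control in blue and model in red, with the group mean as a line and its SD (n = 3) as a band. Sox17 was lowest among model hearts in rat 8 (77.4 CPM), and Sox18 was lowest among them in rat 3 (104.7 CPM).

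Both genes passed the thresholds of the edgeR quasi-likelihood test over all 13895 tested genes (Benjamini-Hochberg adjusted p-value under 0.05 and log2 fold change above 1), as did 1175 genes in the higher direction, or 8.46% of those tested. This contrast chose the pair, so nothing is read from that share. Of all tested genes, 3.45% had a larger log2 fold change than Sox17 and 6.93% a larger one than Sox18. Among the 1175 higher genes the pair ranked 410 and 753 by log2 fold change, near the middle of a group whose median was 1.42. Leaving out any single heart gave log2 fold changes between 1.40 and 1.87 for Sox17 and between 1.14 and 1.43 for Sox18.

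**Figure D2:**
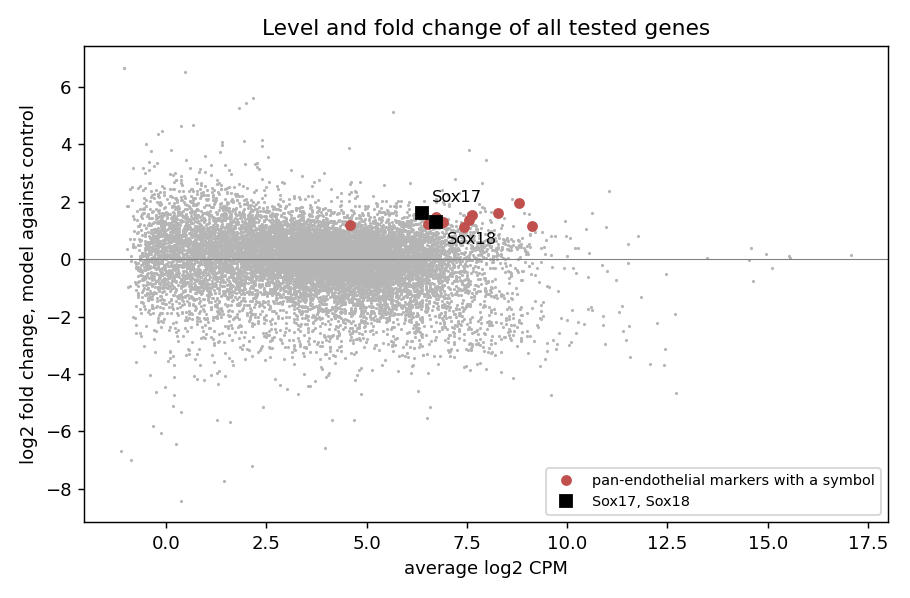
Average log2 CPM (horizontal axis) and log2 fold change of model against control (vertical axis) of the 13895 tested genes in grey, with Sox17 and Sox18 as black squares and the 10 pan-endothelial markers that could be named as red points. Sox17 (1.62) and Sox18 (1.28) lay above the bulk of genes of like level. The named markers ran from 1.10 to 1.96, but their names came from a list of genes higher in the model group. That source bounds their range from below, so the place of the pair within it is a description.

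Both genes were held more evenly among the control hearts than among the model hearts. Among control hearts, the SD of log2 CPM was 0.15 for Sox17 and 0.17 for Sox18, and the highest heart exceeded the lowest by 1.24-fold and 1.27-fold. Among model hearts the SD was 0.55 for Sox17 and 0.42 for Sox18, with 2.04-fold and 1.68-fold between the highest and lowest heart. Of the 2649 tested genes within 1 log2 unit of the average level of Sox17, 88.1% varied less among the model hearts, against 40.2% among the control hearts. For Sox18 the same shares were 75.6% and 44.9%, of 2051 genes. These values of 3 hearts per group are a description of the spread.

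Per gene length, Sox18 was the more abundant of the pair in every heart. Sox18 measured 37.8, 32.9 and 34.1 FPKM in control rats 1, 2 and 3, and Sox17 measured 16.9, 17.3 and 13.7 FPKM. In model rats 3, 4 and 8, Sox18 measured 69.7, 131.6 and 107.1 FPKM, and Sox17 measured 64.5, 84.3 and 32.7 FPKM. Sox18 therefore exceeded Sox17 by 1.90-fold to 2.49-fold in control hearts, and by 1.08-fold, 1.56-fold and 3.27-fold in model rats 3, 4 and 8.

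Among all tested genes, Sox17 exceeded 79.1% to 83.9% of genes in control hearts and 93.0% to 96.6% in model hearts by FPKM, and Sox18 exceeded 89.9% to 93.1% and 96.7% to 98.0%.

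The ratio of Sox17 to Sox18 counts needs no library scaling, because both counts come from the same library. It was 0.64 (exact binomial 95% interval 0.58 to 0.71), 0.76 (0.69 to 0.83) and 0.58 (0.52 to 0.64) in control rats 1, 2 and 3. The intervals cover counting error only and treat the reads as independent. The reads carry no molecular identifiers, so that independence could not be checked. In the model hearts it was 1.33 (1.26 to 1.42) in rat 3, 0.92 (0.88 to 0.97) in rat 4 and 0.44 (0.41 to 0.47) in rat 8. Rats 3 and 4 lay above all control hearts and rat 8 lay below all of them, so the groups overlapped in range, and no interval of a model heart reached that of another model heart.

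The control hearts had a mean ratio of 0.66 ± 0.09 (SD, n = 3), and the model hearts had one of 0.90 ± 0.45 (SD, n = 3). On the log2 scale the mean was -0.61 with an SD of 0.20 in control hearts and -0.30 with an SD of 0.82 in model hearts. The difference of 0.31, a ratio 1.24-fold higher in the model group, was smaller than the SD of the model hearts. It turned to -0.041 without model rat 3 and grew to 0.76 without model rat 8. The highest ratio exceeded the lowest by 1.31-fold in control hearts and by 3.03-fold in model hearts.

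**Figure D3:**
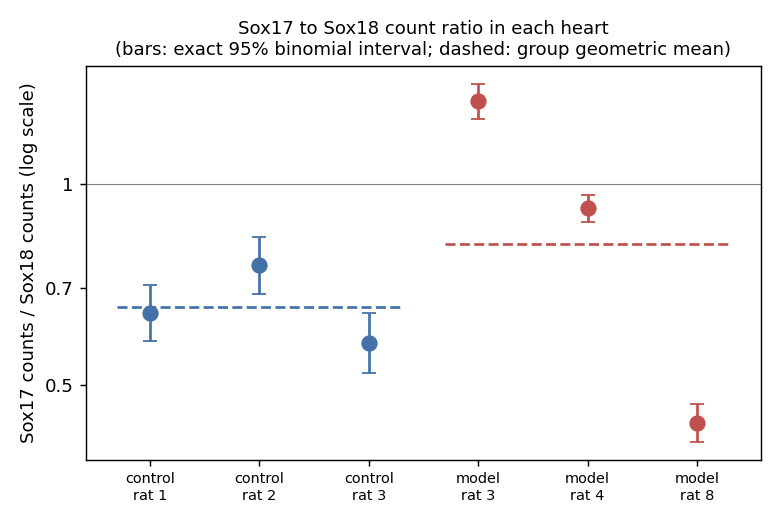
Sox17 counts divided by Sox18 counts in each heart on a log scale, control in blue and model in red, with exact 95% binomial intervals as bars and group geometric means (0.65 and 0.81) as dashed lines. The control hearts sat between 0.58 and 0.76, and the model hearts ran from 0.44 in rat 8 to 1.33 in rat 3.

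Other genes of the same tissue compartment could be named only from the part of the study's table of differentially expressed genes that was read, which lists genes that were higher in the model group. Of 25 pan-endothelial markers 10 were paired with an identifier in this way, Pecam1 and Cdh5 not among them, and of 12 cardiomyocyte markers 0 were, so the heart label was not checked against markers. The direction of each named gene is fixed by that list, and the study's fold change threshold for it leaves smaller changes unnamed. Over all lists, 36 of the 37 named genes other than the pair passed both thresholds, beside 8.46% of all tested genes, and the count ran from 27 without control rat 2 to 33 without control rat 1 when each heart was left out. This count follows from the source of the names and is no evidence on the lists.

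The 10 named pan-endothelial markers come from that list of higher genes, which fixes the direction of their sum. The summed level lay between 963.3 and 1371 CPM in control hearts and between 2988 and 3501 CPM in model hearts, and its part in the levels of Sox17 and Sox18 was not tested. In bulk heart RNA, more cells of a type and more RNA per cell cannot be told apart.

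Among the 10 markers, 2 had a larger log2 fold change than Sox17, 4 had a smaller one than Sox18, and 4 lay between. Markers with small changes could not be named, so this split does not place the pair among endothelial genes at large. Vwf, which encodes the clotting protein stored in endothelial granules, had 237.3, 130.4 and 177.1 CPM in control rats 1, 2 and 3 and 528.1, 919.2 and 666.4 in model rats 3, 4 and 8. Kdr, the main VEGF receptor of endothelium, had 134.5, 131.2 and 191.4 CPM in control hearts and 319.6, 533.6 and 550.6 in model hearts. Like Sox18, both were lowest among model hearts in rat 3. Egfl7, a secreted endothelial factor, had 102.2, 84.3 and 122.5 CPM in control hearts and 364.2, 280.1 and 240.8 in model hearts, and was lowest in rat 8, as was Sox17. Emcn, Icam2 and Clec14a were lowest in CPM among model hearts in rat 4, unlike either Sox gene.

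Of 15 genes listed as reported partners or targets of SoxF factors in vessels, 4 could be named. Notch4, a Notch receptor of endothelium, had 133.9, 99.7 and 101.4 CPM in control rats 1, 2 and 3 and 319.8, 259.7 and 170.8 in model rats 3, 4 and 8. Dll4, a Notch ligand of arterial endothelium, had 68.1, 54.1 and 57.0 CPM in control hearts and 108.4, 156.5 and 115.0 in model hearts. Both were higher in each model heart than in each control heart. The lowest model CPM was in rat 8 for Notch4 and in rat 3 for Dll4. For Dll4 the order of rats 3 and 8 rests on the scaling. These rats held 1937 and 1905 Dll4 reads in libraries of 16617803 and 16848213 counts. Notch4 no longer passed the thresholds without control rat 2 or 3 or model rat 3, nor Dll4 without model rat 4. Nr2f2, a nuclear receptor of venous and lymphatic endothelium, had 35.3, 25.9 and 27.6 CPM in control hearts and 68.1, 79.0 and 78.95 in model hearts. Vcam1, an adhesion molecule for leukocytes, had 9.29, 5.58 and 8.81 CPM in control hearts and 26.8, 15.5 and 34.5 in model hearts.

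Of the other Sox genes, Sox15 alone could be named. It was scarce, with 12, 4 and 15 reads in the control hearts (rats 1, 2 and 3) and 64, 33 and 43 reads in the model hearts (rats 3, 4 and 8). The groups did not overlap, and the log2 fold change was 1.97 (standard error 0.59). Sox15 no longer passed the thresholds when control rat 1 (2.10), 2 (1.55) or 3 (2.33) or model rat 3 (1.59) or 8 (1.95) was left out. Sox7, the remaining SoxF gene, is not analysed here.

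Among arterial genes, Hey1, a transcriptional repressor downstream of Notch, was 3.56-fold higher in the model group by mean CPM, and Acvrl1, a receptor for BMP9 in endothelium, 2.37-fold. Bmx, a kinase of arterial endothelium, had a log2 fold change of 1.24 (standard error 0.44) and did not pass the thresholds in the main fit. It did pass with DESeq2 (1.21), without the filter (1.22), with upper quartile scaling (1.38) and on log2(FPKM + 0.1) (1.495). It also passed with library totals (1.54) and without control rat 1 (1.73). Among lymphatic and venous genes, Ccl21, a chemokine of lymphatic endothelium, was 6.99-fold higher in the model group, Mmrn1, a lymphatic matrix protein, 5.96-fold, and Reln 4.53-fold. Ccl21 and Mmrn1 were uneven between control hearts, with control rat 2 the highest at 75.3 and 24.4 CPM against 17.6 and 8.20 in control rat 1. These 3 had larger log2 fold changes than either Sox gene. Without control rat 2 the log2 fold change rose from 2.80 to 3.86 for Ccl21 and from 2.57 to 3.53 for Mmrn1. That of Reln was 2.17, changed to 1.56 without model rat 8, and was no longer past the thresholds there or without control rat 1 (2.26) or 3 (1.79).

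Genes of heart capillaries included the largest fold among the named vascular genes. Gpihbp1, which holds lipoprotein lipase at the capillary wall, was 10.9-fold higher in the model group, Fabp4, a fatty acid carrier, 5.14-fold, and Rgcc 3.12-fold. Among other endothelial transcription factors, Lmo2 was 2.97-fold higher, Nr2f2 2.55-fold and Bcl6b 2.46-fold, each between the 2.42-fold of Sox18 and the 3.07-fold of Sox17. The other 3 that could be named lay below Sox18, Foxc2 at 2.37-fold, Mecom at 2.35-fold and Tal1 at 2.08-fold. Of the VEGF and angiopoietin genes, Angpt2 was 2.43-fold higher and Vegfa, the main ligand of Kdr, 2.12-fold. The Fabp4 log2 fold change was 2.36, and 1.70 without model rat 3. That of Vegfa was 1.09, and 0.59 without model rat 3, and it passed the thresholds in 1 of the 6 fits that left out a heart. Angpt2 did not pass them without control rat 2 or 3 or model rat 8, Foxc2 without control rat 2 or 3 or model rat 4 or 8, and Tal1 without control rat 2 or model rat 3.

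A few genes of other lists could be named, and the source of the names fixes their direction as well. Tcf7l1, an HMG-box factor of beta-catenin signalling, was 2.13-fold higher in the model group. Postn, made by activated fibroblasts, was 6.74-fold higher, the macrophage gene Lyz2 2.50-fold and the B-cell gene Cd79a 2.87-fold. Cd79a passed the thresholds in 1 of the 6 fits that left out a heart, the one without model rat 3, and Tcf7l1 did not pass them without that rat. They are 1 of 10 fibroblast and 2 of 10 immune markers, and 0 of 10 mural, 5 adipocyte or 3 endocardial markers could be named.

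Model rats 3 and 8 set Sox17 and Sox18 furthest apart. In rat 8, Sox17 was at 0.55 of its level in rat 3 and Sox18 at 1.68 of its own. In CPM from library totals alone the same values were 0.51 and 1.54. On the log2 scale the difference between rat 8 and rat 3 was -0.85 for Sox17, with 10.4% of tested genes lower still. It was 0.75 for Sox18, with 82.1% of tested genes lower. Among the 1175 genes that passed as higher, 29.0% were lower than Sox17 and 94.7% were lower than Sox18. Which of the pair lay further out depends on the genes set beside it, Sox17 among all tested genes and Sox18 among the higher genes. Rats 3 and 8 were picked because they set the pair furthest apart, so these shares are a description.

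The 32 named vascular genes covered the whole span between the pair. The difference was positive in 13 of them, below that of Sox17 in Fabp4, Vegfa and Notch4, and above that of Sox18 in Kdr, Angpt2, Mmrn1 and Reln. Across the 10 pan-endothelial markers it ran from -0.65 to 0.79 with a median of -0.12, and 3 of the 10 were higher in rat 8. From high to low, the orders with rat 8 above rat 3 were 4 > 8 > 3, 8 > 3 > 4 and 8 > 4 > 3. They held 20.1%, 9.97% and 19.9% of all tested genes, and 8.6%, 8.94% and 7.74% of the 1175 higher genes. The names came from a list of higher genes, so nothing is read from these counts about vascular genes. The difference is between 2 libraries with no replicate.

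**Figure D4:**
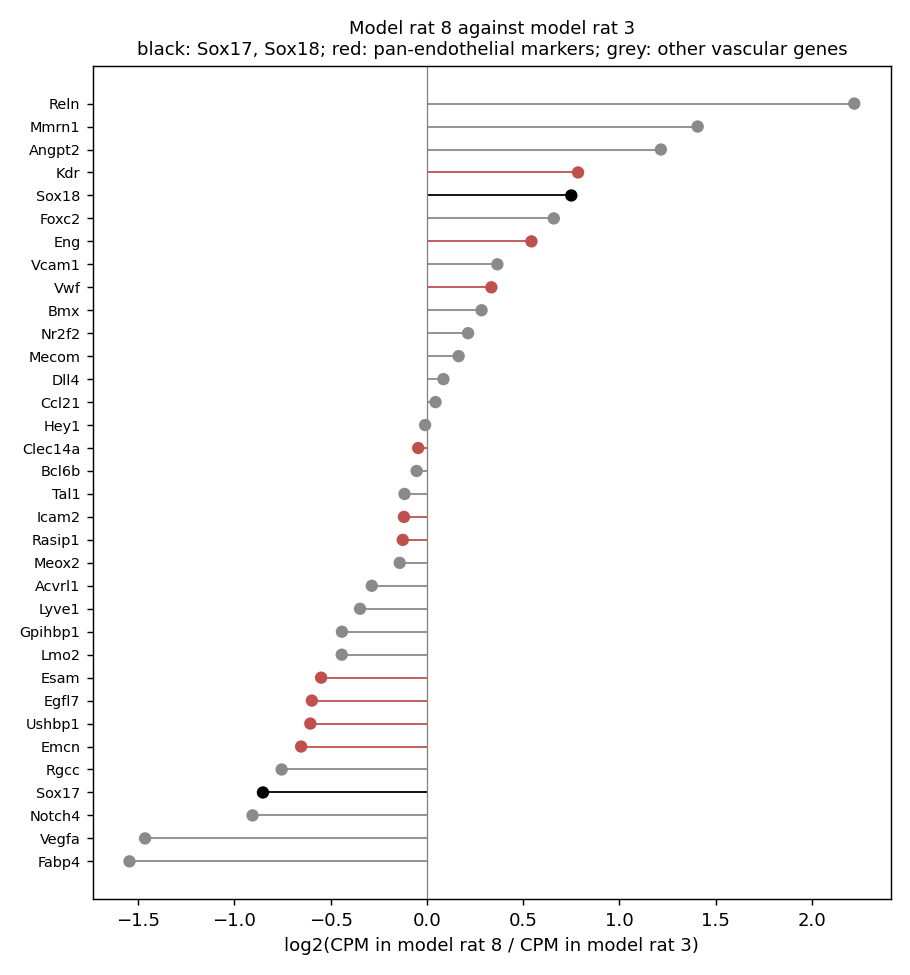
Log2 of the CPM in model rat 8 divided by the CPM in model rat 3 for Sox17 and Sox18 (black), 10 named pan-endothelial markers (red) and 22 other named vascular genes (grey), sorted by value. Sox17 (-0.85) lay near the lower end with Notch4, and Sox18 (0.75) near the upper end next to Kdr.

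The genes most like each Sox gene over the 6 hearts were not shared. Likeness was the root mean square distance between log2 CPM profiles, each centred on its own mean over the 6 hearts, among 12130 genes whose average log2 CPM reached 1. The nearest to Sox17 were Sgk1 (0.08), Wdr90 (0.10), Sostdc1 (0.11), Id1 (0.14) and Col7a1 (0.16). The nearest to Sox18 were Ccnjl (0.09), Eng (0.13), Kctd12 (0.15), Arhgap29 (0.15) and Akap12 (0.16). Sox17 and Sox18 lay 0.51 apart, so that Sox18 ranked 1245 among the neighbours of Sox17 and Sox17 ranked 2302 among those of Sox18.

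The match to Sox17 was close in each heart. Sgk1, a kinase induced by serum and glucocorticoids, had 682, 673 and 592 reads in the control hearts (rats 1, 2 and 3) and 2700, 3539 and 1178 in the model hearts (rats 3, 4 and 8), next to 690, 713, 573, 2495, 3477 and 1282 for Sox17. Id1, an inhibitor of bHLH factors that BMP signalling induces, had 1900, 1832 and 1616 counts in control hearts and 7981, 9502 and 4311 in model hearts. Wdr90, Col7a1, which encodes the collagen of anchoring fibrils, and Sostdc1, a secreted antagonist of BMP and Wnt ligands, had at most 519, 212 and 128 counts in any heart. All 5 were lowest among model hearts in rat 8, at 0.47 to 0.68 of the level in rat 3.

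The genes nearest to Sox18, selected for likeness over these same hearts, were lowest among model hearts in rat 3. Eng, an endothelial co-receptor for TGF-beta and BMP ligands, had 6563, 4562 and 5563 reads in control rats 1, 2 and 3 and 10917, 18246 and 14743 in model rats 3, 4 and 8. Arhgap29 had 1150, 1046 and 1199 counts in control hearts and 2565, 3757 and 3187 in model hearts. Akap12, a scaffold for protein kinase A, had 1057, 891 and 798 counts in control hearts and 2066, 4004 and 2505 in model hearts. Ccnjl, with at most 174 counts in any heart, and Kctd12 completed the 5, which were higher in rat 8 than in rat 3 by 1.25-fold to 1.90-fold.

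**Figure D5:**
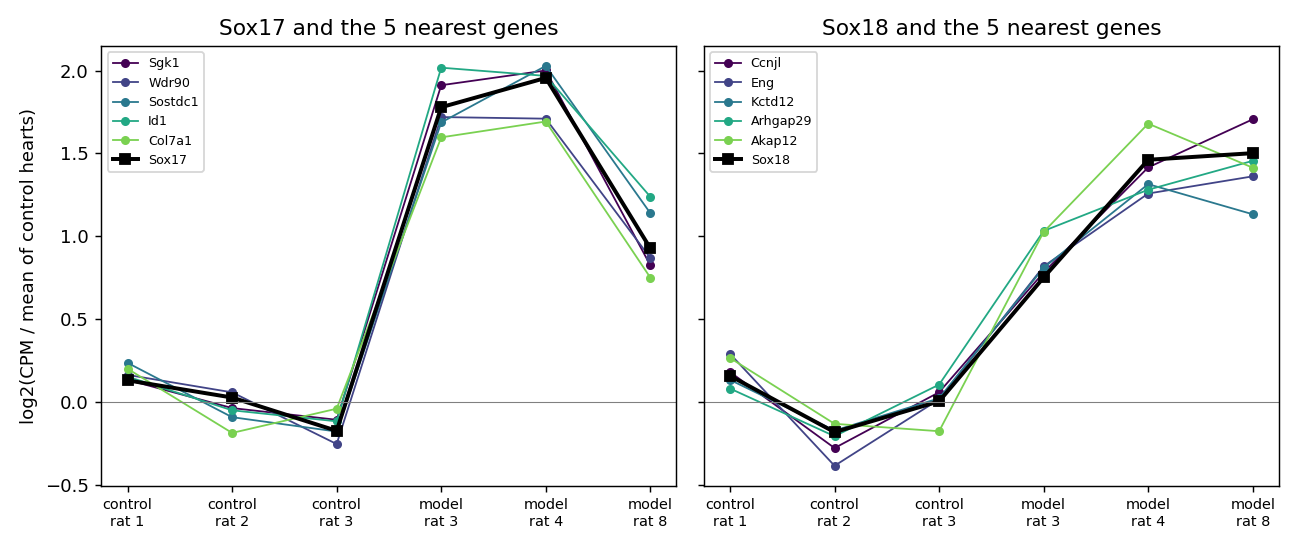
Log2 of CPM over the control mean in each heart for Sox17 (left) and Sox18 (right), in black, and for the 5 genes with the nearest profile to each, in colour; lines join the values of 1 gene and imply no order of the hearts. The group around Sox17 was lowest among model hearts in rat 8, and the group around Sox18 was lowest among them in rat 3.

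All of these profiles share the 6 libraries and the difference between the groups, and the neighbours were picked for likeness over these hearts. Nearness to a profile, or an arrangement shared with it, is therefore a description with no test. With library totals in place of TMM, 4 of the 5 neighbours of Sox17 and 5 of the 5 of Sox18 were the same. Over the model hearts alone, an alternative chosen after seeing the data, Sox18 ranked 9380 among the 12130 neighbours of Sox17, 3 of the 5 neighbours of Sox17 stayed within its nearest 50 genes, and 0 of the 5 of Sox18 did.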

How the data were processed

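Heart RNA of 3 control and 3 model rats was used. Per gene, the authors deposited raw read counts, and FPKM values that the authors made from those counts. The length implied by the 2 values was the same in every heart, within 0.01%, for all 18468 genes with a count in at least 2 hearts. The submitters' processing notes name HISAT2 2.0.5, StringTie 1.3.3b and build mRatBN7.2. The counting tool and its strand setting are not given in the sources used here. Columns were matched to samples by name.

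Counts were fitted in edgeR 4.0.16 (R 4.3.3) with filterByExpr, TMM and quasi-likelihood F tests of group alone, over 13895 genes. Standard errors are the size of the log2 fold change over the square root of F. Profiles are log2 CPM (prior count 2). Alternatives were DESeq2 1.42.0, limma 3.58.1 on log2(FPKM + 1) and log2(FPKM + 0.1), RLE, upper quartile and library-total scaling, no filter, and each heart left out. Python 3.11.15 and scipy 1.17.1 made summaries.

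The members and lists were chosen with earlier results of these data known. Symbols came from the 1283 rows read of the study's table of differentially expressed genes, 1076 of which carry one. That table's fold changes and p-values were not used. Named genes were Sox17 and Sox18, all Sox genes and SoxF partners or targets with a symbol, the 3 largest called changes and the most abundant uncalled gene of each other list, and the 5 nearest profiles. Lists with under 80% of members named are void for any test, so their counts are a description.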

Additional observations from a re-analysis of the deposited data

How the results depend on the processing

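The alternatives changed the direction of neither gene. The log2 fold change of Sox17 was 1.40 to 1.87 when a single replicate was left out and ran from 1.58 with DESeq2 to 1.92 with library totals over the other alternatives. That of Sox18 ran from 1.14 to 1.43 and from 1.23 to 1.56 over the same alternatives. The median over all tested genes, 0.08 in log2 fold change with TMM, was 0.35 with library totals, 0.23 with upper quartile scaling, 0.30 on log2(FPKM + 0.1) and 0.21 on log2(FPKM + 1), and the pair moved up with it. The difference in mean log2 Sox17 to Sox18 ratio was 0.31 with counts and with FPKM, and leaving out single replicates gave -0.041 (without model replicate 3) to 0.759 (without model replicate 8). Over all genes, 1175 passed as higher, against 2300 with library totals, 2101 on log2(FPKM + 0.1) and 657 or 678 when control replicate 2 or 3 was left out, and between 844 and 1706 under the other alternatives. The number of named list genes past both thresholds ran from 27 to 37 over all alternatives. The levels of Sox17 and Sox18 relative to the mean of the endothelial list were not run, because 10 of its 25 members had a name. For 46 other named genes, 547 of the alternative values kept direction and side of the thresholds, 45 were no longer past them and 6 were newly past them. No paired analysis was made, since the study divided the rats at random into 2 separate groups. Number 3 alone occurs in both groups, for 2 different rats. Depth limits the sparse genes such as Sox15, whereas the smallest count of the pair was 573.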
